A study of Mus musculus with 9 samples.

Results

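Punches of mouse medullary brainstem were compared by how much Chat RNA they held. Chat encodes choline acetyltransferase, the enzyme that makes acetylcholine. The sides were selected on the measured level of Chat, in FPKM (a fragment count scaled by transcript length and library size). The low libraries are the 3 of 9 with Chat below 2 FPKM, namely GFP library 4 and hIL-6 libraries 1 and 3. The high libraries are the other 6, GFP libraries 1 to 3 and hIL-6 libraries 2, 4 and 5. All mice were wild type (wt) and had been injected into the cortex 3 weeks earlier with an adeno-associated virus. It was AAV2-HIL6-GFP for 5 libraries, called hIL-6 here after hyper-interleukin-6, a designer cytokine, and AAV2-GFP for 4 control libraries, called GFP. Of the low libraries, hIL-6 1 and 3 belonged to batch 1 and GFP 4 to batch 2. The promoter of the virus, the age of the mice and whether each library came from a separate mouse are not given in the labels, so the p-values below describe the spread between libraries, which may be technical.

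Motor neurons of the medulla lie in compact nuclei, such as the hypoglossal nucleus and the nucleus ambiguus, and drive muscle through axons that leave the brain. Like other cholinergic neurons they make acetylcholine with choline acetyltransferase, load it into vesicles with the transporter encoded by Slc18a3 and take choline back up with the transporter encoded by Slc5a7. Many also hold the intermediate filament peripherin (Prph) and peptides of the calcitonin gene family (Calca, Calcb). Hox genes mark position along the hindbrain and spinal cord, and those with higher paralogue numbers are expressed further back.

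Chat made the sides, so its values are a description with no test. Chat (build mm10, chromosome 14, bases 32408203 to 32465989, minus strand) was at 0.463, 0.866 and 1.18 FPKM in GFP library 4, hIL-6 library 1 and hIL-6 library 3, the order kept for the low libraries below. In the high libraries its lowest, median and highest levels were 3.13, 4.94 and 7.61 FPKM. The mean was 0.838 ± 0.362 FPKM in the low libraries (SD, n = 3) and 5.26 ± 1.72 FPKM in the high libraries (SD, n = 6). The libraries nearest to the threshold were hIL-6 library 3 at 1.18 FPKM on the low side and hIL-6 library 2 at 3.13 FPKM on the high side. Every difference below describes how a gene varied together with Chat in these same libraries. In bulk tissue, fewer cholinergic cells in a punch and less RNA per cell cannot be told apart.

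Slc18a3 is annotated inside Chat, on the same strand, at bases 32462438 to 32464850 of chromosome 14. It overlapped 0 annotated Chat exons, and the RefSeq starts of both genes lie 1059 bases apart, so the pair is not independent of the rule. The 250 bases before the RefSeq start (build GRCm38.p6, 5′ to 3′ on the strand of the gene) are printed for these neighbours and for Slc5a7 and Prph, which lie on other chromosomes and had the smallest p together with Slc18a3. Capitals mark the E-box letters CAGCTG and CACGTG, which basic helix-loop-helix factors can bind. TAATTA, which homeodomain factors can bind, was searched too. Each motif reads the same on both strands.
Chat, chr14:32465910-32466159, minus strand: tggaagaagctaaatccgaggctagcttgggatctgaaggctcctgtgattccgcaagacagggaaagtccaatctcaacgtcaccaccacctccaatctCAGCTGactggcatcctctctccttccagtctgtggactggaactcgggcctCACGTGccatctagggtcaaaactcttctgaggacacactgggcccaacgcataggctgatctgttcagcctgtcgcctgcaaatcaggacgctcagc
Slc18a3, chr14:32464851-32465100, minus strand: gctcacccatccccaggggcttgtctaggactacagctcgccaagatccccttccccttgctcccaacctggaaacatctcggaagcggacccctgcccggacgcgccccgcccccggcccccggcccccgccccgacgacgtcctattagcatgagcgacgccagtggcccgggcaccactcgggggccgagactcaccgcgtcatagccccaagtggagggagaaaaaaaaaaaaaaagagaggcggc
Slc5a7, chr17:54299035-54299284, minus strand: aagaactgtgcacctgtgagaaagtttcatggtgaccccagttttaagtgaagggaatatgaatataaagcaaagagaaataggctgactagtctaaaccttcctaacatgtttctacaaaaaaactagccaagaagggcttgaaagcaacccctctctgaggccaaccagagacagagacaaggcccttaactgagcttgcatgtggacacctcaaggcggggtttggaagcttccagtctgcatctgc
Prph, chr15:99054924-99055173, plus strand: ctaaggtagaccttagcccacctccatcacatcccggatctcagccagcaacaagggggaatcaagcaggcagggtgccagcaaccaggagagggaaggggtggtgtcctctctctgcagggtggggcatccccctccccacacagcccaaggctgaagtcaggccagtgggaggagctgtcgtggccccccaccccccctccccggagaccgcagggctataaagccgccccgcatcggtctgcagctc
The Chat window held CAGCTG at 150 bases and CACGTG at 98 bases before the start. The other windows held neither, and TAATTA was in none of the 4. Of 32851 RefSeq windows of this length, 13% held CAGCTG, 6.02% CACGTG and 4.84% TAATTA.

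The sides were compared across 13957 genes whose mean was 0.5 FPKM or more, with limma on log2(FPKM + 0.5) and with treatment and batch as terms. Differences are low minus high on that scale. By limma, 0 genes were lower (0%) and 0 higher (0%) at an adjusted p under 0.05. At an unadjusted p under 0.05 there were 359 (2.57%), of which 201 were lower (1.44%) and 158 higher (1.13%). Every low library was below every high library for 77 genes (0.552%), and above for 53 genes (0.38%). The median log2 difference over all genes was 0.0034, and 47.9% of genes were below 0. With the log2 level of Chat as a number in place of the sides, 8 genes were called (0.0573%), all lower where Chat was lower, namely Slc5a7, Slc18a3, Calcb, Hoxc4, Prph, Kcnj14, Stk32a and Gcg. Gcg passed the filter on low values only through the high libraries, so its direction was fixed by the filter. The scaled depth was 33.6, 34.8 and 44.3 in the low libraries and 31.7 to 46.5 in the high libraries, in units of 1e6 fragments.

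**Figure D1:**
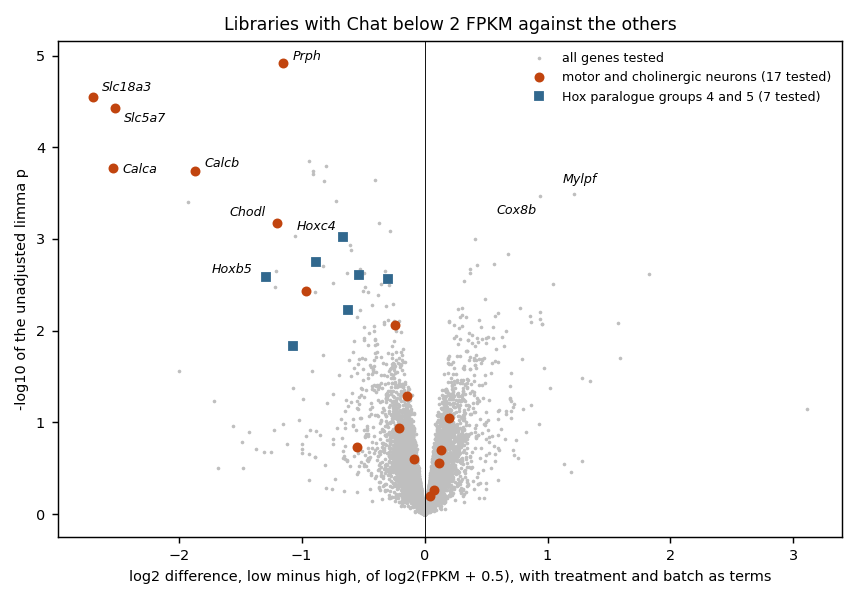
Each point is 1 of 13957 genes, with the log2 difference of low minus high libraries on the x axis and the -log10 of its unadjusted limma p on the y axis. Prph, Slc18a3 and Slc5a7 lie highest, at log2 differences of -1.15, -2.69 and -2.52, and the 7 genes of Hox groups 4 and 5 all lie left of 0.

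Transporters of cholinergic terminals stood at lower levels in the low libraries. Slc18a3, which fills vesicles with acetylcholine, was at 0.202, 1.52 and 1.43 FPKM in the low libraries, against 5.57, 8.22 and 14.1 FPKM at the lowest, median and highest in the high libraries. Slc5a7, which recovers choline, was at 0.618, 1.22 and 1.78 FPKM in the low libraries, against 5.22, 7.65 and 15.4 FPKM in the high libraries. The sides did not overlap for either gene, and GFP library 4 was the lowest of all 9 for both. The log2 difference was -2.69 ± 0.34 (SE; limma adjusted p = 0.173) for Slc18a3 and -2.52 ± 0.33 (limma adjusted p = 0.173) for Slc5a7. Slc10a4, an orphan transporter of cholinergic and monoaminergic vesicles, was at 6.03, 2.05 and 5.58 FPKM in the low libraries, against 7.104, 8.99 and 12.2 FPKM in the high libraries, and here hIL-6 library 1 was the lowest. Ache, the enzyme that breaks acetylcholine down and is made by many neurons, overlapped, at 107, 136 and 129 FPKM in the low libraries and 111 to 154 FPKM in the high libraries.

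Peripherin and the calcitonin gene peptides were separated in the same way. Prph had the smallest p of all genes, at 11.2, 8.01 and 12.1 FPKM in the low libraries, against 18.9, 25.4 and 29.2 FPKM at the lowest, median and highest in the high libraries (log2 difference -1.15 ± 0.13; limma adjusted p = 0.169). The filament genes Nefl, Nefm, Nefh and Ina, which projection neurons of the brain make widely, had log2 differences of -0.06, -0.01, 0.10 and 0.11, and their sides overlapped. Calca, which encodes calcitonin and the alpha form of calcitonin gene-related peptide, was at 1.14, 4.59 and 1.24 FPKM in the low libraries, against 7.72, 13.8 and 25.2 FPKM in the high libraries (log2 difference -2.53 ± 0.41; limma adjusted p = 0.299). Calcb, the gene of the beta form, was at 0.5198, 1.16 and 1.21 FPKM in the low libraries, against 2.93, 4.51 and 7.998 FPKM in the high libraries (log2 difference -1.86 ± 0.30; limma adjusted p = 0.299). Neither peptide gene overlapped between the sides. Without GFP library 4, where only hIL-6 library 2 of the high side bears on the fit, the log2 difference was -1.63 for Slc18a3, -1.53 for Slc5a7, -1.01 for Prph, -1.83 for Calca and -1.02 for Calcb. Calca stood highest among the low libraries in hIL-6 library 1, as did Slc18a3, whereas Chat and Slc5a7 stood highest in hIL-6 library 3. Calca and Calcb are close paralogues, so how their reads were divided is uncertain.

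**Figure D2:**
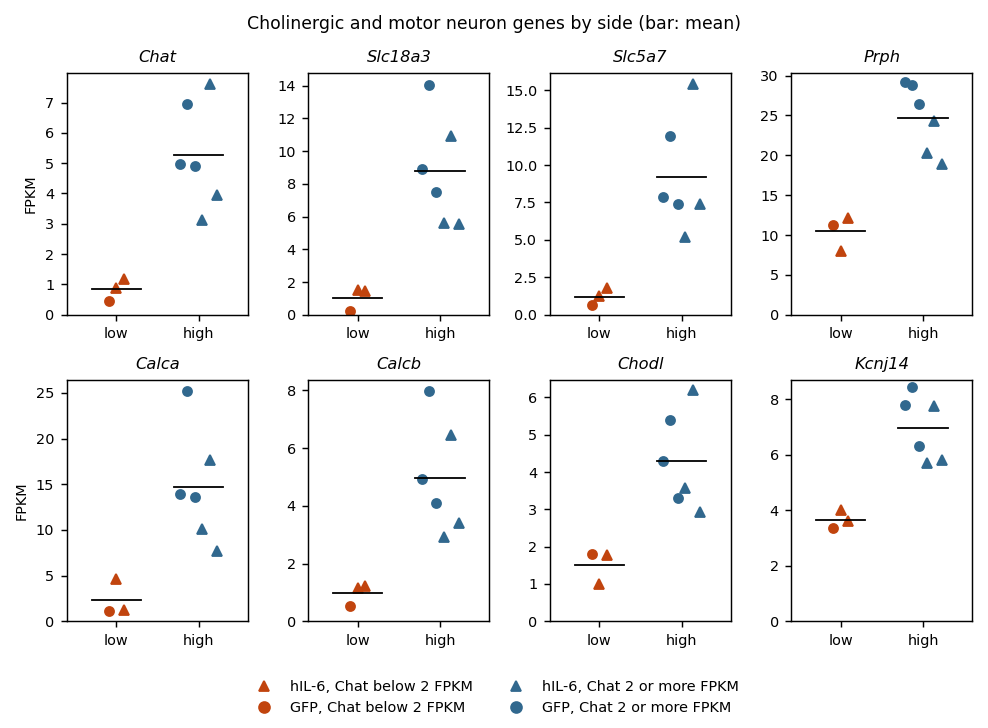
FPKM of 8 genes in the low libraries (left of each panel, red) and the high libraries (right, blue), with circles for GFP, triangles for hIL-6 and a bar at the mean. Prph spans 8.01 to 12.1 FPKM in the low and 18.9 to 29.2 FPKM in the high libraries, and Chat, which made the sides, is shown beside it.

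Factors that specify motor neurons were at low levels in all libraries. Isl1, a LIM homeodomain factor, was at 0.0456 FPKM in GFP library 4 and 0.135 FPKM in hIL-6 library 3, with 0 listed for hIL-6 library 1, against 0.333 to 1.07 FPKM in the high libraries. Mnx1, a homeodomain factor of somatic motor neurons, was listed at 0 in all 3 low libraries, against 0.185 to 0.943 FPKM in the high libraries. Tbx20, a T-box factor of branchial and visceral motor neurons, was at 0.0129 to 0.0135 FPKM in the low and 0.0378 to 0.19 FPKM in the high libraries. These genes did not overlap between the sides, but their means were under the filter and they were not tested. Isl2 was at 0.195, 0.109 and 0.502 FPKM in the low and 0.307 to 0.935 FPKM in the high libraries and overlapped.

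Surface molecules of motor neurons gave a mixed picture. Chodl, the lectin chondrolectin known from fast motor neurons of the mouse spinal cord, was at 1.79, 0.991 and 1.77 FPKM in the low libraries, against 2.94, 3.94 and 6.21 FPKM at the lowest, median and highest in the high libraries (log2 difference -1.20 ± 0.24; limma adjusted p = 0.55). Ret, the receptor kinase for ligands of the GDNF family, was at 21.04, 19.2 and 18.1 FPKM in the low and 21.4 to 25.2 FPKM in the high libraries, without overlap (log2 difference -0.24 ± 0.07). Its co-receptor Gfra1 overlapped, at 16.3 to 18.8 FPKM in the low and 18.5 to 19.9 FPKM in the high libraries, as did the LIM homeodomain gene Lhx4, at 2.54 to 3.06 FPKM in the low and 2.82 to 4.099 FPKM in the high libraries. Of 26 motor and cholinergic genes listed, 24 were in the table and 17 passed the filter. Among those that passed, 12 had a difference below 0 (47.9% of all genes), 0 passed adjustment and 8 had every low library below every high library (0.552% of all genes). Their median was -0.24, beside 0.0034 for all genes. The 5 above 0 were Esrrb (0.20), Nos1 (0.13), Esrrg (0.12), Mmp9 (0.079) and Gfra2 (0.044), and the sides overlapped for each. A member that passes the filter only through the high libraries had to differ, so these counts describe the list and do not test it.

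The genes whose level was most like that of Chat, by Pearson's r of log2(FPKM + 0.5) over 9 libraries, were Slc5a7 (0.997), Calcb (0.988), Slc18a3 (0.981), Kcnj14 (0.967), Stk32a (0.960), Nkx6-3 (0.938), Insl6 (0.933), Calca (0.927), Gna14 (0.926) and Prph (0.923). A gap between the sides gives a high r by itself. Over the 6 high libraries alone r was 0.966 for Slc5a7, 0.947 for Calcb, 0.917 for Slc18a3, 0.862 for Kcnj14, 0.776 for Stk32a, 0.495 for Nkx6-3, 0.545 for Insl6, 0.846 for Calca, 0.811 for Gna14 and 0.641 for Prph. The points share libraries and scaling, and r is a description. Kcnj14, an inward rectifier potassium channel subunit, was at 3.36, 4.003 and 3.598 FPKM in the low libraries, against 5.71, 7.02 and 8.44 FPKM at the lowest, median and highest in the high libraries (log2 difference -0.82 ± 0.14; limma adjusted p = 0.299). Stk32a, a serine/threonine kinase, was at 1.53, 1.42 and 1.73 FPKM in the low and 2.43, 3.38 and 4.303 FPKM in the high libraries. The homeobox gene Nkx6-3 was at 0.822 to 1.22 FPKM in the low and 1.39 to 1.77 FPKM in the high libraries. Gna14, a G protein alpha subunit, was at 0.2199 to 0.319 FPKM in the low and 0.433 to 0.737 FPKM in the high libraries, and Insl6, of the insulin and relaxin family, at 0.471 to 0.552 FPKM in the low and 0.636 to 0.789 FPKM in the high libraries. None of these genes overlapped between the sides, and Gna14 passed the filter only through the high libraries.

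The remaining genes among the 10 with the smallest p on the lower side were Ecel1, Abca4 and Fxyd7. Ecel1, an endopeptidase-like protein needed in the mouse for motor axons to branch in muscle, was at 17.2, 8.497 and 14.8 FPKM in the low libraries, against 22.8, 24.9 and 29.8 FPKM at the lowest, median and highest in the high libraries (log2 difference -0.91 ± 0.15). Abca4, a lipid transporter known from photoreceptors, was at 0.556, 0.4904 and 0.507 FPKM in the low and 1.07, 1.52 and 2.27 FPKM in the high libraries (log2 difference -0.94 ± 0.15). Fxyd7, a regulator of the sodium pump, was at 30.7, 35.2 and 41.6 FPKM in the low and 38.2, 50.1 and 54.7 FPKM in the high libraries, and its sides overlapped. By limma, adjusted p over these 10 genes ran from 0.169 to 0.299.

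Hox genes of paralogue groups 4 and 5 had lower fitted levels in the low libraries, and unevenly so. All 7 had a log2 difference below 0, with a median of -0.66 (47.9% below 0 and a median of 0.0034 over all genes), and 0 passed adjustment. Hoxc4 was at 4.51, 7.46 and 8.14 FPKM in the low libraries, against 9.16, 10.1 and 11.7 FPKM at the lowest, median and highest in the high libraries (log2 difference -0.66 ± 0.14; limma adjusted p = 0.659). Hoxb4 was at 2.03, 2.56 and 3.38 FPKM in the low and 3.58 to 4.601 FPKM in the high libraries. Hoxd4 was at 5.41, 3.45 and 5.68 FPKM in the low and 6.42 to 10.03 FPKM in the high libraries. Hoxa4 was at 6.21, 8.52 and 8.92 FPKM in the low and 8.921 to 9.85 FPKM in the high libraries, so that hIL-6 library 3 lay almost at the lowest high library. For the 4 genes of group 4 every low library was below every high library (0.552% of all genes). The 3 genes of group 5 overlapped, and the difference between the groups was not tested.

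Hoxb5 was at 2.86, 5.44 and 11.3 FPKM in the low libraries, against 9.91, 13.6 and 18.6 FPKM at the lowest, median and highest in the high libraries (log2 difference -1.29 ± 0.31; limma adjusted p = 0.953). Hoxa5 was at 1.14, 2.71 and 4.76 FPKM in the low and 3.44, 5.203 and 10.04 FPKM in the high libraries (log2 difference -1.07 ± 0.35). Hoxc5 was at 0.641, 1.599 and 2.16 FPKM in the low and 2.14, 2.65 and 3.802 FPKM in the high libraries (log2 difference -0.88 ± 0.20). For all 3, GFP library 4 was the lowest of the 9 and hIL-6 library 3 lay within the range of the high libraries. The median over groups 4 and 5, as a log2 deviation from the mean of the high libraries, was -1.11 in GFP library 4, -0.63 in hIL-6 library 1 and -0.29 in hIL-6 library 3. Without GFP library 4 the median log2 difference was -0.25. It was then -0.31 for Hoxb5, 0.0615 for Hoxa5, -0.37 for Hoxc5, -0.22 for Hoxc4, -0.25 for Hoxb4, -0.17 for Hoxa4 and -0.82 for Hoxd4. With treatment and batch as terms, these values rest on hIL-6 libraries 1 and 3 against hIL-6 library 2 alone.

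The sides overlapped for all 8 tested Hox genes outside these groups. Of 8 genes of groups 1 to 3, 7 passed the filter, 6 were below 0, the median was -0.23 and 0 were free of overlap (0.552% over all genes). Hoxb3 was at 13.6, 14.4 and 13.3 FPKM in the low and 13.3 to 19.1 FPKM in the high libraries. Hoxb2 was at 5.77, 6.49 and 7.41 FPKM in the low and 6.13 to 8.96 FPKM in the high libraries. Of 8 genes of groups 6 to 8 only Hoxb6 passed the filter, at 0.138, 0.155 and 0.745 FPKM in the low and 0.4602 to 2.49 FPKM in the high libraries, with overlap. Its log2 difference was -0.99 ± 0.45, -1.70 with the replicate number as a block and -0.09 without GFP library 4, and it passed the filter only through the high libraries. Whether the place of a punch along the medulla has a part in the motor neuron results was not tested.

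**Figure D3:**
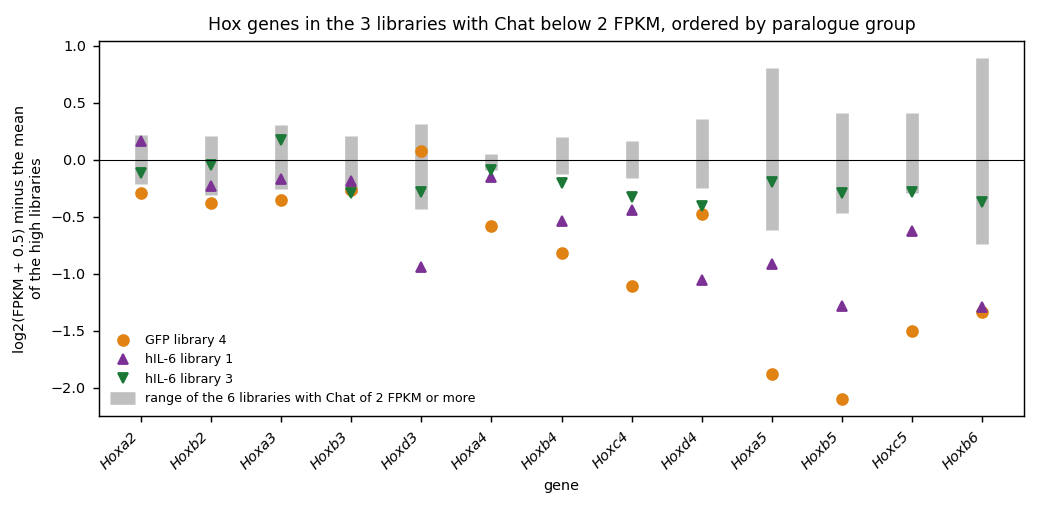
The y axis gives log2(FPKM + 0.5) minus the mean of the 6 high libraries for Hox genes in order of paralogue group, with points for the 3 low libraries and grey bars for the range of the high libraries. GFP library 4 lies below the bars at all 7 genes of groups 4 and 5 and is the lowest point there except at Hoxd4, where hIL-6 library 1 is.

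Most neuropeptide genes had lower fitted levels in the low libraries. Of 18 listed, 15 passed the filter, 14 were below 0 (47.9% of all genes), the median was -0.57 and 0 passed adjustment. Every low library was below every high library for 4 (0.552% of all genes), Calca and Calcb among them. Nts, the neurotensin precursor, was at 0.782, 0.774 and 1.01 FPKM in the low libraries, against 1.16, 2.19 and 3.74 FPKM at the lowest, median and highest in the high libraries. Grp, the precursor of gastrin-releasing peptide, was at 0.606, 0.633 and 0.642 FPKM in the low and 0.905, 1.04 and 1.73 FPKM in the high libraries. Cartpt, the CART peptide precursor, overlapped, at 2.41, 1.67 and 3.16 FPKM in the low and 2.69 to 5.11 FPKM in the high libraries. Cck, the cholecystokinin precursor, overlapped too, at 8.72, 7.24 and 16.4 FPKM in the low and 10.9 to 21.5 FPKM in the high libraries. The median of the list was -0.12 once hIL-6 library 1 was left out and -0.87 once hIL-6 library 3 was.

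On the higher side, the 2 smallest p belonged to genes known from muscle. Mylpf, a myosin light chain of fast skeletal muscle, was at 9.57, 5.196 and 7.95 FPKM in the low libraries, against 1.35, 3.36 and 6.04 FPKM at the lowest, median and highest in the high libraries (log2 difference 1.21 ± 0.21; limma adjusted p = 0.362). Cox8b, a cytochrome c oxidase subunit of heart and skeletal muscle, was at 2.57, 8.83 and 10.03 FPKM in the low and 1.48, 2.85 and 4.001 FPKM in the high libraries (log2 difference 0.94 ± 0.17; limma adjusted p = 0.362). Ptk2b, a calcium-dependent tyrosine kinase, was at 1.49, 3.82 and 3.33 FPKM in the low and 1.31 to 1.54 FPKM in the high libraries. Cox8b and Ptk2b were above all high libraries in hIL-6 libraries 1 and 3 and within their range in GFP library 4. A term for side by treatment gave 0 genes at an adjusted p under 0.05 by limma and 416 at an unadjusted p under 0.05, and its limma adjusted p was 1 for Ptk2b and for Cox8b. Its low GFP arm is GFP library 4 alone, assumed to vary like the other libraries, so these counts do not show that the sides differ alike in both treatments.

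Of the 10 genes with the smallest p on the higher side, 4 did not overlap between the sides (0.38% of all genes). The 10 were selected by p on this same split, so the count is a description. Arntl2, a paralogue of the clock factor Bmal1, was at 1.87, 2.64 and 2.596 FPKM in the low and 1.202 to 1.78 FPKM in the high libraries. Aste1 was at 2.81, 2.94 and 3.18 FPKM in the low and 1.97 to 2.37 FPKM in the high libraries. Fam204a was at 4.899, 4.24 and 3.96 FPKM in the low and 2.94 to 3.77 FPKM in the high libraries. Txnl4a, a spliceosome component, was at 26.9, 21.6 and 22.1 FPKM in the low and 15.4 to 21.1 FPKM in the high libraries, and these 4 make up part of the 53 genes counted above. The other 6 overlapped. Adck5 was at 7.09 to 7.99 FPKM in the low and 4.099 to 7.53 FPKM in the high libraries, and Rassf7 at 1.42 to 2.32 FPKM in the low and 0.793 to 1.78 FPKM in the high libraries. Log2 differences of the 10 ran from 0.32 to 1.21, and limma adjusted p was 0.362 or above.

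**Figure D4:**
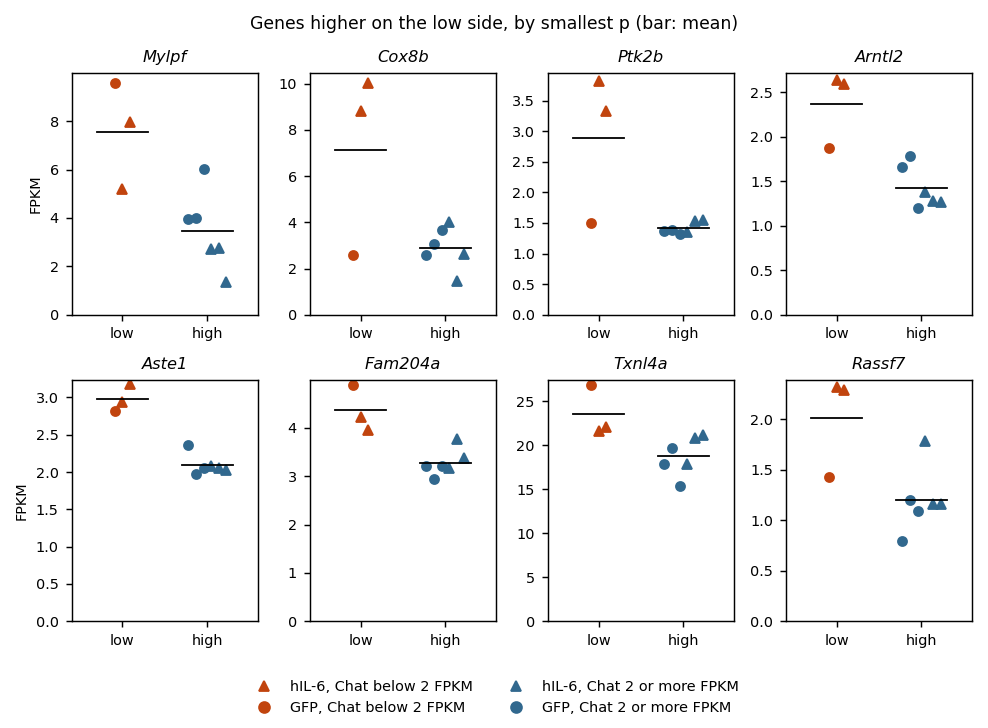
FPKM of 8 genes with higher levels in the low libraries (left of each panel, red) than in the high libraries (right, blue), with circles for GFP, triangles for hIL-6 and a bar at the mean. For Cox8b and Ptk2b the GFP library on the low side, at 2.57 and 1.49 FPKM, lies within the range of the high libraries.

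The low libraries did not share the levels of other position and cell type markers. Tph2, the enzyme of serotonin synthesis in raphe neurons and the marker of the tissue the punches were to hold, was at 44.6, 11.9 and 44.4 FPKM in the low libraries, against 21.7, 42.2 and 49.98 FPKM at the lowest, median and highest in the high libraries. Slc6a4, the serotonin transporter, was at 27.5, 8.08 and 30.9 FPKM in the low and 15.2 to 35.4 FPKM in the high libraries. Pou4f1, a POU factor of the inferior olive and other brainstem nuclei, was at 36.8, 0.421 and 16.2 FPKM in the low and 7.44 to 34.1 FPKM in the high libraries. Htr5b, a serotonin receptor gene expressed in the inferior olive, was at 23.4, 0.2196 and 19.6 FPKM in the low and 7.47 to 34.1 FPKM in the high libraries. For these 4 genes hIL-6 library 1 was the lowest of all 9. It was the highest for Slc17a7, a vesicular glutamate transporter, at 10.4, 97.3 and 30.8 FPKM in the low and 7.597 to 39.2 FPKM in the high libraries. It was also the highest for Barhl1, a homeobox gene of precerebellar neurons, at 0.246, 5.93 and 1.74 FPKM in the low and 0.342 to 1.63 FPKM in the high libraries. Zic1, a zinc finger factor of granule and precerebellar neurons, was at 1.77, 16.4 and 6.99 FPKM in the low and 3.26 to 7.26 FPKM in the high libraries. GFP library 4 was the lowest of all 9 for Barhl1 and Zic1, so that low Chat stood beside opposite extremes of these genes.

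**Figure D5:**
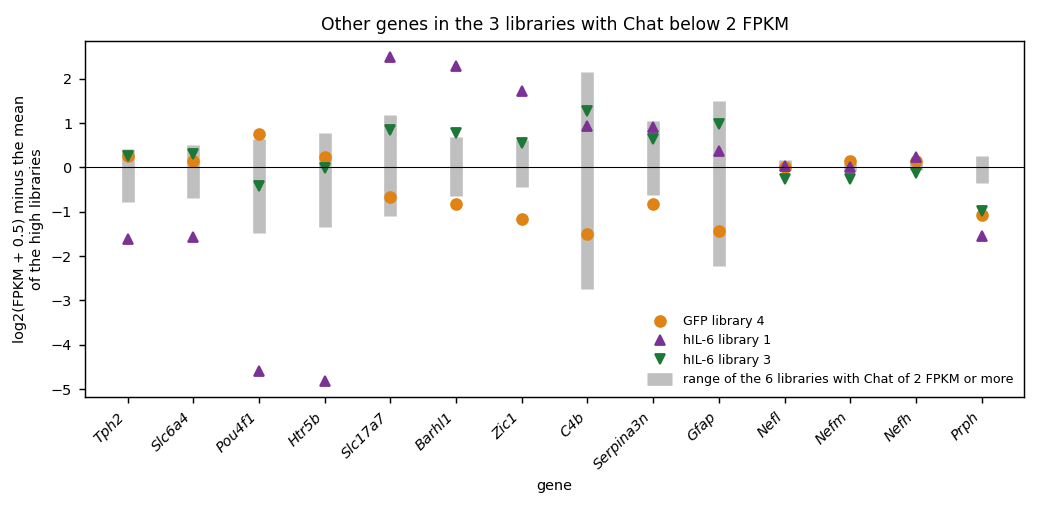
The y axis gives log2(FPKM + 0.5) minus the mean of the 6 high libraries, with points for the 3 low libraries and grey bars for the range of the high libraries. hIL-6 library 1 stands outside the bars at the 7 genes on the left, with Tph2 at 11.9 and Slc17a7 at 97.3 FPKM, and all 3 low libraries lie below the bar at Prph.

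Lists of broad cell types had median log2 differences between -0.17 and 0.14. Over all genes tested, 47.9% were below 0. Of pan-neuronal genes 6 of 12 were below 0 with a median log2 difference of -0.00039, and they summed to 4240 to 4958 FPKM in the low and 4382 to 4899 FPKM in the high libraries. The share below 0 was 4 of 7 for GABA and glycine genes (median -0.0030), 2 of 3 for glutamatergic genes (-0.012), 3 of 10 for oligodendrocyte genes (0.019), 7 of 9 for astrocyte genes (-0.031), 4 of 8 for microglia genes (0.0049) and 3 of 6 for endothelial genes (0.016). It was 10 of 12 for serotonergic genes (-0.17), 2 of 8 for perineuronal net genes (0.14), 5 of 7 for cerebellar genes (-0.054) and 3 of 6 for precerebellar genes (-0.050). It was 1 of 2 for noradrenaline and adrenaline genes (-0.15), 5 of 6 for leptomeningeal genes (-0.054) and 3 of 5 for choroid plexus and ependymal genes (-0.15). Dbh of the noradrenaline, Rarres2 and Enkur of the choroid plexus and ependymal and Pcp2 of the cerebellar genes passed the filter only through the high libraries. Their mean had to be lower in the low libraries, so these counts describe the lists and do not test them. In these lists 0 genes were free of overlap (0.552% below and 0.38% above over all genes) and 0 passed adjustment. Several medians rested on single libraries. With each library left out in turn they ran from -0.53 to 0.17 for serotonergic, -0.40 to 0.33 for leptomeningeal, -0.33 to 0.36 for noradrenaline and adrenaline, -0.51 to -0.05 for choroid plexus and ependymal, -0.08 to 0.27 for microglia, -0.11 to 0.20 for oligodendrocyte, 0.06 to 0.25 for perineuronal net, -0.09 to 0.11 for precerebellar and -0.12 to 0.08 for glutamatergic genes.

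Of 10 listed genes of the response to the cytokine, every hIL-6 library was above every GFP library for 10 within the low side and for 6 within the high side, where Socs3, Bcl3, Stat3 and Timp1 overlapped between the treatments. The low side has only hIL-6 libraries 1 and 3 and GFP library 4 to separate, so the criterion is easier to meet there. The 2 counts cannot be compared, and the share over all genes was not computed. C4b, complement component 4, was at 24.8 to 31.4 FPKM in the hIL-6 and 4.11 FPKM in the GFP library of the low side, and at 22.1 to 57.8 FPKM in the hIL-6 and 1.47 to 8.73 FPKM in the GFP libraries of the high side. Serpina3n, a protease inhibitor of reactive glia, was at 55.6 to 67.2 FPKM in the hIL-6 and 19.9 FPKM in the GFP library of the low side, and at 32.98 to 73.8 FPKM in the hIL-6 and 22.9 to 26.8 FPKM in the GFP libraries of the high side. Gfap, the astrocyte filament, was at 257 to 393 FPKM in the hIL-6 and 73.5 FPKM in the GFP library of the low side, and at 278 to 564 FPKM in the hIL-6 and 41.7 to 227 FPKM in the GFP libraries of the high side. The 10 genes were chosen in these libraries and are no independent evidence, and 5 of 10 were below 0 between the sides, with a median of 0.0043. RNA of the pituitary and of red cells was uneven. Prl, the prolactin gene, was at up to 1.495 FPKM in the low and 0 to 35.1 FPKM in the high libraries. Its highest levels were in GFP library 1 (35.1 FPKM) and hIL-6 library 4 (10.98 FPKM), both on the high side. Gh, the growth hormone gene, was at up to 1.98 FPKM in the low and 0 to 40.2 FPKM in the high libraries. It was highest in the same 2 libraries, at 40.2 and 18.5 FPKM, and the sides overlapped for both genes. Of tested pituitary genes 3 of 3 were below 0 (47.9% of all genes), with a median of -1.48. Pomc passed the filter only through the high libraries, so its mean had to be lower in the low libraries. The 5 erythroid genes summed to 83.4 to 165 FPKM in the low and 85.3 to 609 FPKM in the high libraries (median -0.26). Their part in the results was not tested.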

How the data were processed

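The authors deposited FPKM, with a column for each library. The authors used kallisto, DESeq2 and mm10, per the submitters' processing notes, whereas the sources used here give no versions, annotation or library scaling. An exact 0 may be a failed estimate. Depth is relative and was read from the FPKM steps of low genes with 1 transcript in GENCODE M21, where 97.4% to 98.1% of values were whole multiples within 0.05. At 0.5 FPKM, a transcript of 2000 bases had 29.0 to 42.5 fragments and a counting error of 15.3% to 18.6%, which covers counting only.

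Values were taken as log2(FPKM + 0.5), which understates changes of low genes, for genes at a mean of 0.5 FPKM and above. Tests used limma 3.58.1 (R 4.3.3) with trend, two-sided, with terms for treatment, batch and side, 5 residual degrees of freedom and Benjamini-Hochberg adjustment at 0.05. Chat was not tested. Members and lists were chosen with earlier results of these data known. Named were the 10 genes of smallest p in each direction, up to 4 by p from each list, the marker genes given with the split and the 10 genes most like Chat, without predicted genes, RIKEN clones and pseudogenes. Slc10a4, Ache, Chodl, Ret, Gfra1, Lhx4, Isl1, Isl2, Mnx1, Tbx20, Hoxa4, Hoxd4, Hoxb8, Nts, Cck, Uts2b, Hspb1, Cox6a2, Slc6a4, Nefm, C4b, Serpina3n, Gcg and Timp1 fall outside that rule and were chosen after their values were seen. So do Esrrb, Nos1, Esrrg, Mmp9 and Gfra2, named as the motor and cholinergic genes above 0. Some genes under the rule are not reported here. Gene positions come from GENCODE M21 (GRCm38, the assembly mm10), which held 16429 of 17187 symbols, and 0 pairs of libraries were identical.

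Tested on simulated data of this design with 13895 genes, limma called 96% of 100 genes shifted by 1 and 100% of 99 shifted by 2 (log2), and 9 unshifted genes. The noise was normal and independent between genes and libraries, which real libraries need not follow. These shares therefore do not give the power in the real libraries, where Slc18a3 at -2.69 was not called (limma adjusted p = 0.173). Deviations from the mean of each treatment correlated at 0.13, 0.14, 0.27 and 0.46 between libraries of the same number, for numbers 1 to 4. The closest GFP library was that of the same number for hIL-6 libraries 2 to 4, and GFP library 2 for hIL-6 library 1. Same numbers share a batch label, and batch was not removed from these deviations. The number was also tried as a block.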

Additional observations from a re-analysis of the deposited data

Results flagged for a closer look

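The highest or lowest library of the GFP, hIL-6 or high group stood apart for 24 of 207 pairs of gene and group over 69 genes. Chance gives about 1 in 20 for genes not selected by their values. Many of these genes were named for a difference between the sides or after their values were seen, so that rate is no reference here. GFP library 4 is the only low library of the GFP group, so its flags can follow from that selection. Each value is the gap to the nearest library divided by the range of the group, followed by the level of that library and of the others. Pairs share libraries, so they are not independent.

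GFP library 4, on the low side, was the lowest GFP library for Prph (0.847; 11.2 against 26.5 to 29.2 FPKM), Hoxa4 (0.876; 6.21 against 9.27 to 9.703 FPKM) and Nkx6-3 (0.930; 0.822 against 1.71 to 1.77 FPKM). It was the highest for Fam204a (0.858; 4.899 against 2.94 to 3.22 FPKM). hIL-6 library 1, also on the low side, was the highest hIL-6 library for Slc17a7 (0.810; 97.3 against 15.2 to 30.8 FPKM), Barhl1 (0.802; 5.93 against 0.7095 to 1.74 FPKM), Zic1 (0.798; 16.4 against 4.62 to 6.99 FPKM), Nefh (0.780; 325 against 253 to 269 FPKM) and Ina (0.753; 211 against 156 to 169.6 FPKM).

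Of the high libraries, hIL-6 library 4 was the highest hIL-6 library for Hoxb6 (0.747; 2.49 against 0.155 to 0.745 FPKM), Nts (0.865; 3.74 against 0.774 to 1.17 FPKM), Prl (0.870; 10.98 against 0.0795 to 1.495 FPKM) and Gh (0.893; 18.5 against 0 to 1.98 FPKM). GFP library 1 was the highest GFP library for Prl (0.930; 35.1 against 0 to 2.46 FPKM) and Gh (0.888; 40.2 against 0 to 4.53 FPKM), and GFP library 2 for Slc17a7 (0.840; 39.2 against 7.597 to 12.7 FPKM) and Nefl (0.840; 630.0 against 548 to 561 FPKM). Among the 6 high libraries, hIL-6 library 4 was the highest for Tbx20 (0.673; 0.19 against 0.0378 to 0.0876 FPKM) and Gcg (0.810; 2.11 against 0.384 to 0.713 FPKM), GFP library 1 for Aste1 (0.724; 2.37 against 1.97 to 2.08 FPKM) and Prl (0.687; 35.1 against 0 to 10.98 FPKM), GFP library 2 for Isl2 (0.733; 0.935 against 0.307 to 0.474 FPKM) and Nefl (0.807; 630.0 against 539 to 557 FPKM), and GFP library 3 for Hoxb8 (0.702; 1.45 against 0.0739 to 0.482 FPKM).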

How the results depend on the processing

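By limma the count of genes past adjustment was 0 in the main comparison (359 at an unadjusted p under 0.05) and 0 under the alternatives, except 1 (Prph) with library weights, 8 with Chat as a number, and 0 to 2 with a library left out, at 2 (Slc18a3 and Slc5a7) without hIL-6 library 2 and 1 (Prph) without hIL-6 library 3. The limma adjusted p of Prph ran from 0.0158 to 1 over its alternatives, that of Slc18a3 from 1.9e-05 to 1 and that of Slc5a7 from 8.97e-07 to 1. With the replicate block the count was 0, with 374 genes at an unadjusted p under 0.05, and no call changed.

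The median of the motor and cholinergic list was -0.1117 with Chat as a number, which is a slope per log2 unit and not a difference, and -0.2699 to -0.2081 with a library left out. That of Hox groups 4 and 5 was -0.332 with Chat as a number, -0.2454 in batch 1 alone, in the hIL-6 libraries alone and without GFP library 4, and -0.7809 to -0.2454 with a library left out. Batch 1 alone, the hIL-6 libraries alone and leaving out GFP library 4 all rest on hIL-6 libraries 1 and 3 against hIL-6 library 2 and give the same estimates. In batch 2 the low side and GFP cannot be told apart. Counts of genes without overlap, whose alternatives were chosen after seeing the data, have fewer libraries to separate in most settings. They were 894 below and 776 above in batch 1 alone, 2205 and 2142 in the hIL-6 libraries alone, 105 to 569 and 73 to 475 with a library left out, and 96 above with no filter. With a filter at 1 FPKM no gene of Hox groups 6 to 8 was left.

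Some log2 differences changed sign, and the cause was not tested. In batch 1 alone, the hIL-6 libraries alone and without GFP library 4, Hoxa5 was 0.0615, C4b 0.3306, Prl 0.6093 and Gh 0.8274. C4b was 0.2365 without terms, Serpina3n -0.0344 with Chat as a number, and Nefm 0.0303 with library weights and 0.0076 with the replicate block. With a library left out the ranges were -1.398 to 0.0615 for Hoxa5, -0.4544 to 0.3306 for C4b, -2.214 to 0.6093 for Prl, -2.608 to 0.8274 for Gh, -0.1807 to 0.8797 for Serpina3n, -0.0798 to 0.0735 for Nefm, -0.1375 to 0.028 for Nefl, -0.9945 to 0.2734 for Tph2, -0.8524 to 0.2699 for Slc6a4, -2.843 to 0.1002 for Pou4f1, -2.599 to 0.1118 for Htr5b and -0.2021 to 1.013 for Zic1. Tph2, Slc6a4, Pou4f1, Htr5b and Zic1 changed sign without hIL-6 library 1.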

Other observations

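Among genes in no list, chosen after their values were seen, Uts2b, the precursor of urotensin 2B, was at 1.24, 0.715 and 0.769 FPKM in GFP library 4, hIL-6 library 1 and hIL-6 library 3, against 1.69, 2.095 and 3.9 FPKM at the lowest, median and highest in the high libraries. Hspb1, a small heat shock protein, was at 13.9, 13.8 and 16.2 FPKM in the low and 20.2, 23.8 and 30.8 FPKM in the high libraries. Gcg, the proglucagon gene, which neurons of the nucleus of the solitary tract express, was listed at 0 in GFP library 4 and hIL-6 library 1 and was at 0.186 FPKM in hIL-6 library 3, against 0.384, 0.664 and 2.11 FPKM in the high libraries. These 3 are among the 77 genes with every low library below every high library (0.552%). The limma adjusted p was 0.659 for Uts2b and 0.371 for Hspb1. Gcg passed the filter on low values only through the high libraries, so it had to differ and its values are a description. In the other direction, Cox6a2, a cytochrome c oxidase subunit of striated muscle, was at 0.9497, 1.05 and 1.05 FPKM in the low and 0.0993, 0.491 and 0.723 FPKM in the high libraries, without overlap (limma adjusted p = 1). It is among the 53 genes with every low library above every high library (0.38%). No list of muscle genes was examined.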
